A study of Macaca mulatta with 19 samples.

Results

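The genes described here carry glucose into the cell and break it down to lactate. They are SLC2A1, HK2, GPI, PFKP, PFKL, ALDOA, PGK1, ENO1, LDHA and PDK1, 10 genes chosen by name. They were measured by RNA sequencing in luteinized granulosa cells of 19 rhesus macaques, with 1 library per animal. A search of the row names for these symbols found 8 rows, and 3 more rows, for ALDOA, GPI and PGK1, were found through their Ensembl identifiers in a reference table, so that 11 of the 32386 gene rows were taken. In 9 of the 11 rows the reference table pairs the row's Ensembl identifier with the member, and the counts of members below are over these 9. The other two are a row with the symbol PGK1 (ENSMMUG00000013725), which held between 2 and 18 reads per library, and a row with the symbol ENO1 (ENSMMUG00000011916), which held between 7 and 137. The reference table does not list either identifier, and both are named below by their symbol as a PGK1-symbol row and an ENO1-symbol row. The identifier that the table pairs with ENO1, and TPI1 and PKM of the same pathway, were not analysed here.

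All animals were females that received an implant and a diet from near the onset of menarche, and cells were aspirated around ovulation, in a controlled cycle, from the follicle that the cycle itself had selected. The groups were Chow+T (chow diet, testosterone implant, n = 4), WSD+C (Western-style diet, cholesterol implant, n = 5), WSD+T (Western-style diet, testosterone implant, n = 6) and Chow+C (chow diet, cholesterol implant, n = 4), the last being the control. The labels also give the class of the oocyte from each follicle, which was degenerating in 6 animals, MII (metaphase II, mature) in 4, MI (metaphase I, still maturing) in 8 and GV (germinal vesicle, immature) in 1. Chow+T held 2 MII, 1 degenerating and 1 GV, WSD+C held 2 degenerating and 3 MI, WSD+T held 3 degenerating, 1 MII and 2 MI, and Chow+C held 1 MII and 3 MI. The MII libraries were Chow+T 2, Chow+T 3, WSD+T 1 and Chow+C 4, where the number only names the animal within its group. No cell sort is named in the labels, and ages are not given there.

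Glycolysis turns glucose into pyruvate with a small gain of ATP and needs no oxygen. In the ovarian follicle the granulosa and cumulus cells take up glucose and break it down, and the pyruvate and lactate they release feed the oocyte, which uses glucose poorly itself. SLC2A1 (GLUT1) is a glucose transporter of the cell membrane. HK2, a hexokinase, traps glucose as glucose 6-phosphate, GPI converts that to fructose 6-phosphate, and PFKP and PFKL, the platelet and liver forms of phosphofructokinase, commit the sugar to glycolysis. ALDOA splits the resulting fructose bisphosphate. PGK1 makes the first ATP of the payoff phase and ENO1, an enolase, acts after it. LDHA converts pyruvate to lactate, and PDK1 inhibits the pyruvate dehydrogenase complex and so keeps pyruvate out of the mitochondrial citrate cycle. SLC2A1, HK2, PGK1, LDHA and PDK1 are known targets of hypoxia-inducible factor.

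Gene counts per library ranged from 28832132 to 56385679, and 49.1% to 69.1% of reads fell in genes. The lowest share in genes was that of Chow+C 2, in which mitochondrial transcripts made up 17.9% of gene counts. Of 11 granulosa marker rows, 10 were at 1 CPM (read counts divided by library size and scaled to a common total, with TMM factors) or more in every library. The granulosa marker score, the mean log2 CPM of these rows, was 5.78 in WSD+C 4 and 7.14 to 8.68 in the others. WSD+C 4 also held 128800 CPM of 7 erythroid marker rows and 2094 CPM of 11 leukocyte marker rows, the highest sums of both lists. Chow+C 2 and WSD+C 4 touch most results below, and the comparisons of oocyte classes with MI are also given without both, an alternative chosen after the values were seen. Since these are bulk samples, fewer cells of a type and less RNA per cell cannot be told apart.

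The members differed in how much they varied between animals. Over the 19 libraries, the coefficient of variation of CPM was 57.1% for SLC2A1, 48.6% for HK2, 44.2% for PFKP, 42.4% for PDK1, 39.0% for LDHA and 33.6% for PGK1. It was 19.2% for GPI, 17.97% for ALDOA and 17.0% for PFKL. SLC2A1 spanned 16.3-fold, between 3.76 CPM in WSD+T 3 and 61.4 CPM in WSD+T 5. PFKL spanned 1.94-fold. WSD+C 4 was lowest and Chow+C 2 second lowest for GPI, PFKP, PFKL, ALDOA, PGK1 and LDHA, while WSD+T 5 was highest for these 6 genes. On the mean of the members' log2 CPM, each scaled to z-scores over libraries, WSD+C 4 stood at −1.93 and Chow+C 2 at −1.33, and WSD+T 5 at 1.42. All 4 MII libraries were below 0, between −0.53 and −0.12, and 7 of the 8 MI libraries were above 0.

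**Figure D1:**
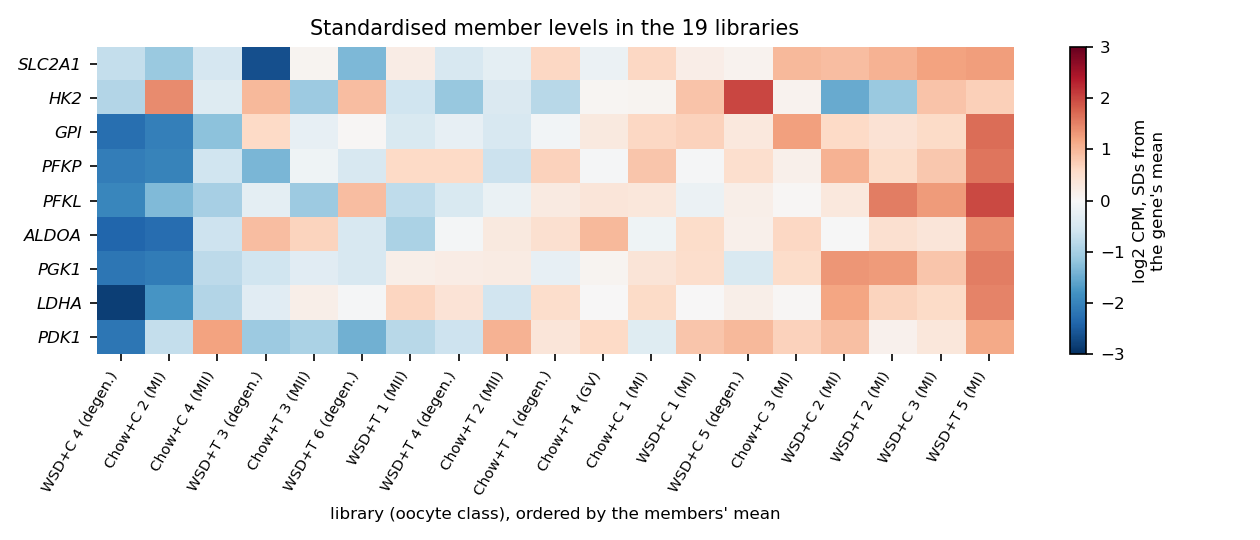
Each row is a member and each column a library, ordered by the members' mean, and colour gives the z-score of log2 CPM over the 19 libraries. WSD+C 4 and Chow+C 2 stand at the low end, with means of −1.93 and −1.33, and WSD+T 5 at the high end with 1.42, while the HK2 row does not follow the others.

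MII against MI compares RNA levels of these genes between follicles with a mature oocyte and those with an oocyte still in meiosis I. Glucose use itself was not measured. All 9 members had a lower fitted level in MII follicles, with a median log2 difference of −0.45. Over the 14976 genes tested the median was −0.01, and 51% were negative. The members other than HK2 varied together across libraries, so their signs, here and in the comparisons below, are not independent. The members were also chosen with earlier results of these data known. No member passed the threshold of edgeR's quasi-likelihood test (adjusted p under 0.05), and neither did any other gene, so that the background was 0% called, and 586 genes had an unadjusted p under 0.05. At that unadjusted level 2 of the 9 members, SLC2A1 and PFKL, were lower and none was higher, against 1.7% of all genes lower and 2.21% higher.

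SLC2A1 had 20.4, 26.6, 29.3 and 17.4 CPM in the MII libraries, against a lowest of 11.4, a median of 49.3 and a highest of 61.4 CPM in the 8 MI libraries. The MII values lay inside the MI range. The MI libraries below the highest MII value were Chow+C 2, which had the 11.4 CPM, and WSD+C 1, which had 28.8 CPM. These were picked out after the values were seen, and the share of all genes so arranged was not computed. The means were 23.4 ± 5.47 CPM in MII (SD, n = 4) and 43.9 ± 16.9 CPM in MI (SD, n = 8). The fitted log2 difference, with treatment group as a term, was −1.17 (SE 0.53, 95% confidence interval −2.31 to −0.04; edgeR adjusted p = 0.9995). An exact two-sided permutation test of the MII and MI libraries on log2 CPM gave a difference of −0.79 and p = 0.0949, where the smallest p the design allows is 0.00202. Without Chow+T 1 the fitted difference was −0.76, and without WSD+T 1 it was −1.56.

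PFKL had 202, 173.5, 183 and 176 CPM in the MII libraries, against a lowest of 166.5, a median of 220.1 and a highest of 291 CPM in the MI libraries. Apart from Chow+C 2, which had the 166.5 CPM, every MI library was above every MII library. The fitted log2 difference was −0.41 (SE 0.18, 95% confidence interval −0.80 to −0.03; edgeR adjusted p = 0.9995), and the exact permutation p was 0.0545. Its sister form PFKP, known for its place in cells that run glycolysis fast, had 112, 144.5, 212 and 114 CPM in the MII libraries, against a lowest of 55.4, a median of 220.0 and a highest of 355 CPM in MI. The PFKP classes overlapped throughout, and the fitted log2 difference was −0.68 (SE 0.48, edgeR adjusted p = 0.9995).

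GPI had 266, 279.7, 268 and 228 CPM in the MII libraries, against a lowest of 192, a median of 333.5 and a highest of 417 CPM in MI. Apart from Chow+C 2, which had the 192 CPM, every MI library was above every MII library, the next lowest MI value being 322 CPM. The fitted log2 difference was −0.45 (SE 0.23, edgeR adjusted p = 0.9995), with an exact permutation p of 0.0869. PGK1 showed the same arrangement, with 328, 264, 319 and 224 CPM in MII, against a lowest of 138.5, a median of 387 and a highest of 525 CPM in MI. Here too Chow+C 2 had the lowest MI value and the next lowest, 344 CPM, was above all MII libraries. The fitted log2 difference of PGK1 was −0.60 (SE 0.30, edgeR adjusted p = 0.9995) and the exact permutation p was 0.273. For PFKL, GPI and PGK1, Chow+C 2 was set apart after the values were seen, and the fits and exact tests given here kept it. The share of all genes with such an arrangement was not computed.

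LDHA had 458, 666, 832 and 395 CPM in the MII libraries, against a lowest of 256, a median of 808 and a highest of 1256 CPM in MI, with wide overlap. Its fitted log2 difference was −0.68 (SE 0.44, edgeR adjusted p = 0.9995). ALDOA averaged 672 ± 101 CPM in MII (SD, n = 4) and 717 ± 136 CPM in MI (SD, n = 8), a fitted log2 difference of −0.29 (SE 0.25). HK2 lay between 53.3 and 73.5 CPM in MII and between 43.7 and 169 CPM in MI, a fitted log2 difference of −0.29 (SE 0.51). PDK1 split the MII libraries into a low pair, Chow+T 3 at 18.1 and WSD+T 1 at 19.2 CPM, and a high pair, Chow+T 2 at 47.8 and Chow+C 4 at 51.9 CPM, around an MI mean of 36.0 ± 10.5 CPM (SD, n = 8). The PDK1 difference was −0.12 (SE 0.47). For ALDOA, HK2 and PDK1 the classes overlapped and the edgeR adjusted p was 0.9995.

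**Figure D2:**
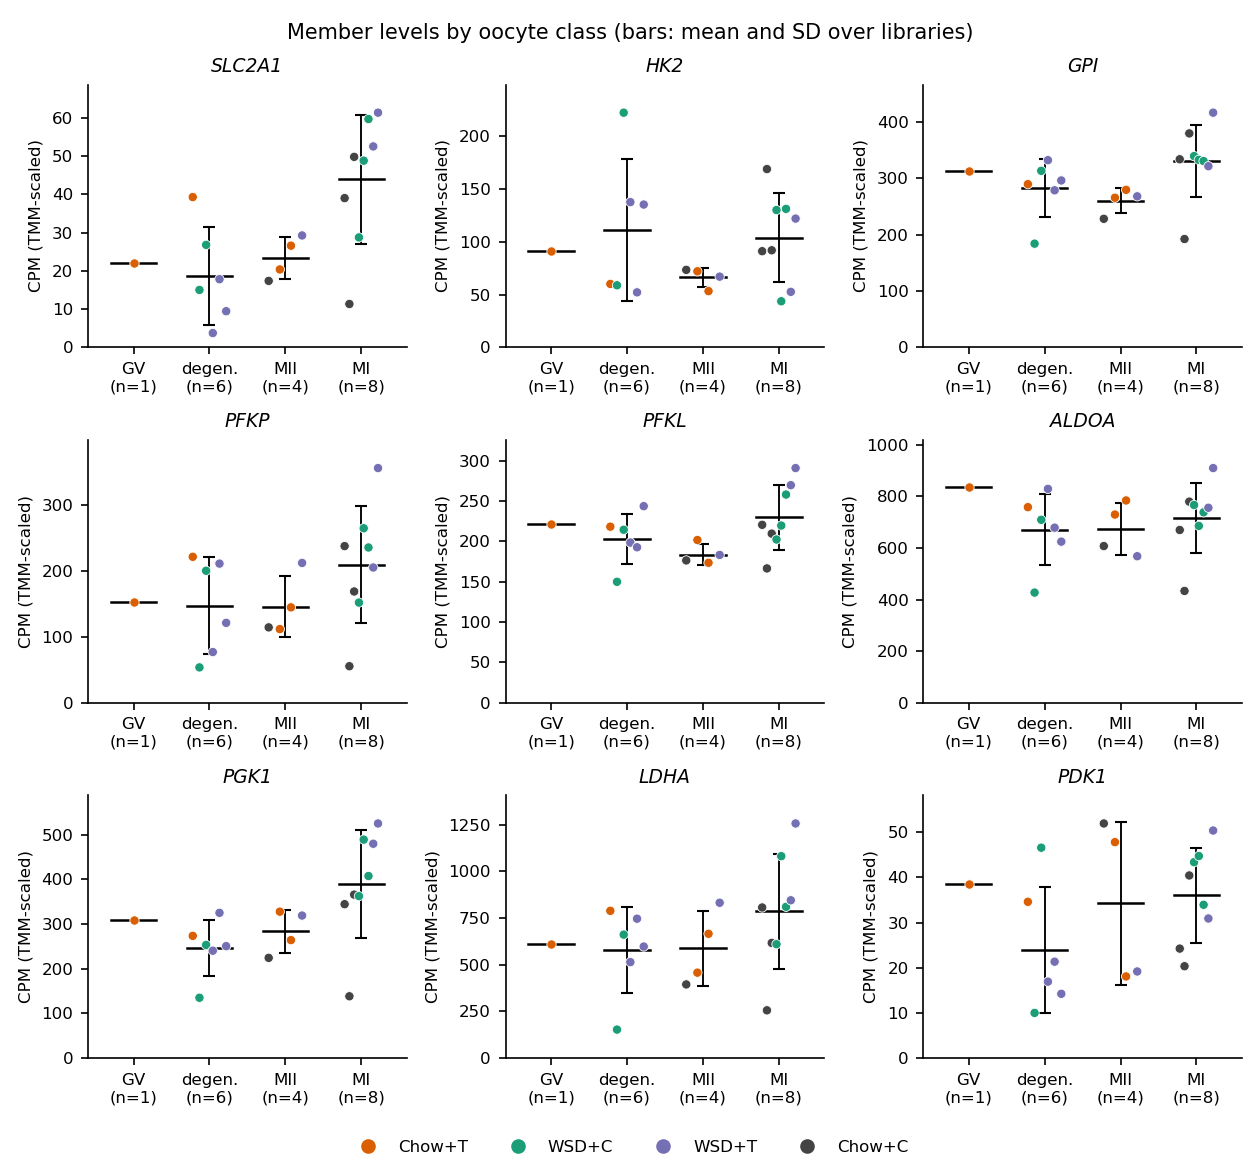
Each panel shows 1 member as TMM-scaled CPM by oocyte class (GV, degenerating, MII, MI), points are libraries coloured by treatment group, and bars are the mean and SD. For SLC2A1 the MII libraries sit between 17.4 and 29.3 CPM, below the MI mean of 43.9 CPM, and in several panels Chow+C 2 is the lowest MI point.

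The MII against MI differences depended on single libraries. Leaving out 1 library at a time, 8 or 9 of the 9 members stayed negative, but the number with an unadjusted edgeR p under 0.05 ran between 0 and 4, with 4 reached without Chow+C 2 and 0 reached on leaving out any 1 of Chow+T 1, Chow+T 3, WSD+C 3, WSD+T 2, WSD+T 4, WSD+T 5, Chow+C 1 or Chow+C 3. Without Chow+C 2 and WSD+C 4 together, 5 of the 9 members (PGK1, GPI, PFKL, SLC2A1 and LDHA) had an unadjusted p under 0.05, among 1108 such genes of 14627 tested, and their adjusted p lay between 0.641 and 0.648. Within WSD+T, the 1 MII library was below both MI libraries for 7 of the 9 members, the exceptions being HK2 and PFKP, against 35.4% of all genes tested. Within Chow+C, the 1 MII library was below all 3 MI libraries for 1 of the 9, HK2, against 20.1% of all genes. These are the 2 treatment groups that hold both classes, and with 1 MII library in each the difference inside a group has no replicate check. Under each of 4 other fits, of these 2 groups alone, of the MI and MII libraries alone, without the treatment term or with the leukocyte score as a covariate, 0 members had an unadjusted p under 0.05. It was 4 with DESeq2, 2 with DESeq2's size factors in edgeR, and 1 without a filter on low counts or without WSD+C 4 and WSD+T 6.

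Markers of other cells were read in the same contrast. Of the tested leukocyte markers 10 of 10 had a higher fitted level in MII (median log2 difference 2.00), with a summed level between 28.0 and 103 CPM in MII and between 7.52 and 59.96 CPM in MI, and RAC2 was at 0 in every library. All 10 macrophage markers were also higher in the fit (median 0.96, summed level 17.3 to 147.5 CPM in MII and 10.4 to 23.5 CPM in MI), as were 6 of 6 oocyte markers tested (median 8.71, summed level 2.42 to 17.3 CPM in MII and 2.24 to 18.6 CPM in MI). Of 11 granulosa markers, 9 were lower (median −0.34), with sums between 5441 and 13480 CPM in MII and between 8213 and 14590 CPM in MI. At an unadjusted edgeR p under 0.05 stood 5 of the 6 oocyte markers and 0 of the leukocyte, macrophage and granulosa markers. Their part in the differences of the glycolysis genes was not tested beyond the leukocyte covariate above.

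Follicles with a degenerating oocyte were then set against MI. Here 8 of 9 members had a lower fitted level, with a median log2 difference of −0.61, against 0.02 over all genes, of which 48% were negative. No member and no other gene passed the adjusted threshold in edgeR (0% called), where 2136 genes had an unadjusted p under 0.05. At the unadjusted level 3 members, PGK1, SLC2A1 and LDHA, were lower and none higher, against 4.45% of all genes lower and 9.82% higher. DESeq2, run as an alternative, called PGK1 (log2 difference −0.91, adjusted p = 0.00562) and SLC2A1 (−1.56, adjusted p = 0.0163) among 0.615% of genes called lower and 4.8% called higher.

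PGK1 had a lowest of 135 (WSD+C 4), a median of 252 and a highest of 325 CPM (WSD+T 4) in the degenerating libraries, against 138.5, 387 and 525 CPM in MI. All degenerating libraries were below all MI libraries but Chow+C 2, and the share of all genes with such an arrangement was not computed. The fitted log2 difference was −0.92 (SE 0.25, 95% confidence interval −1.44 to −0.40; edgeR adjusted p = 0.164), and the exact permutation test on log2 CPM gave −0.62 and p = 0.0566. Leaving out each of the 18 libraries in turn kept the unadjusted edgeR p under 0.05, and gave differences between −1.03 and −0.75.

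SLC2A1 had the largest fitted difference of the 9 members, with a lowest of 3.76, a median of 16.4 and a highest of 39.3 CPM in the 6 degenerating libraries, against 11.4, 49.3 and 61.4 CPM in MI. The degenerating values were below every MI library in WSD+T 3 (3.76 CPM) and WSD+T 6 (9.47 CPM), and the other 4 lay within the MI range, the highest in Chow+T 1 (39.3 CPM), so the classes overlapped. The means were 18.7 ± 12.8 CPM in degenerating (SD, n = 6) and 43.9 ± 16.9 CPM in MI (SD, n = 8). The fitted log2 difference was −1.58 (SE 0.47, 95% confidence interval −2.57 to −0.58; edgeR adjusted p = 0.169), and the exact permutation p was 0.0183, where 0.000333 is the smallest the design allows. That exact p takes no account of treatment group and is not adjusted over the members. Each of the 18 fits without 1 library kept its unadjusted edgeR p under 0.05, and the differences lay between −1.82 and −1.31.

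LDHA had a lowest of 153, a median of 629 and a highest of 789 CPM in the degenerating libraries, against 256, 808 and 1256 CPM in MI. Its fitted log2 difference of −0.79 (SE 0.37, edgeR adjusted p = 0.350) kept an unadjusted p under 0.05 in 6 of the 18 fits without 1 library. PDK1 averaged 24.0 ± 13.9 CPM in degenerating (SD, n = 6) and 36.0 ± 10.5 CPM in MI (SD, n = 8), a log2 difference of −0.61. PFKP, GPI, PFKL and ALDOA had differences of −0.75, −0.35, −0.30 and −0.25. HK2 was the exception, with a fitted difference of 0.26, a mean of 111 ± 67.0 CPM in degenerating (SD, n = 6) and 104 ± 42.3 CPM in MI (SD, n = 8), and its highest value of all libraries, 222 CPM, in WSD+C 5.

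The markers of other cells were read here too. All 10 tested leukocyte markers were higher in the fit, each with an unadjusted p under 0.05 (median log2 difference 5.14), and their summed level was between 9.47 and 2094 CPM in degenerating libraries and between 7.52 and 59.96 CPM in MI. The 6 oocyte markers tested had a median difference of 3.81, with 0 at an unadjusted p under 0.05. The 10 macrophage markers had a median difference of 5.16, with sums of 16.6 to 2706 CPM in degenerating and 10.4 to 23.5 CPM in MI. Of the 11 granulosa markers 9 were lower (median −0.43), with sums of 1356 to 14490 CPM in degenerating and 8213 to 14590 CPM in MI. When the leukocyte score entered the fit, PGK1 had a difference of −0.72 and SLC2A1 one of −1.21, each with an edgeR adjusted p of 0.9994. In the same fit LDHA had −0.38, PFKP −0.32 and PDK1 −0.15, each less than without the covariate by over 1.5 times, and 8 of the 9 members were negative. Without WSD+C 4 and WSD+T 6, the libraries with the most leukocyte RNA, PGK1 and SLC2A1 were at −0.72 and −1.36, each with an edgeR adjusted p of 0.971. Without Chow+C 2 and WSD+C 4, they were −0.80 (edgeR adjusted p = 0.265) and −1.57 (edgeR adjusted p = 0.292), and 3 members had an unadjusted p under 0.05, among 2015 such genes of 14627.

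Degenerating against MII gave no such pattern. Of the 9 members 5 were negative, the median log2 difference was −0.07, against 0.04 over all genes, and none had an unadjusted p under 0.05, among 506 genes that did. No gene passed the adjusted threshold (0% called), and leaving out 1 library gave 3 to 6 negative members. The SLC2A1 difference was −0.40 (95% confidence interval −1.51 to 0.71) and the HK2 difference 0.55 (95% confidence interval −0.53 to 1.63), intervals that leave room for changes of either sign. The single GV library, Chow+T 4, had 22.2 CPM of SLC2A1, 309 CPM of PGK1 and 613 CPM of LDHA, all within the range of the MII libraries. PFKP (151.9 CPM) and PDK1 (38.4 CPM) were also within that range. The GV library was above every MII library for HK2 (90.9 CPM, highest MII 73.5) and GPI (312.9 CPM, highest MII 279.7). The same held for PFKL (221.5 CPM, highest MII 201.7) and ALDOA (834.7 CPM, highest MII 783.7). For SLC2A1 and PGK1 the only MI library below it was Chow+C 2.

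**Figure D3:**
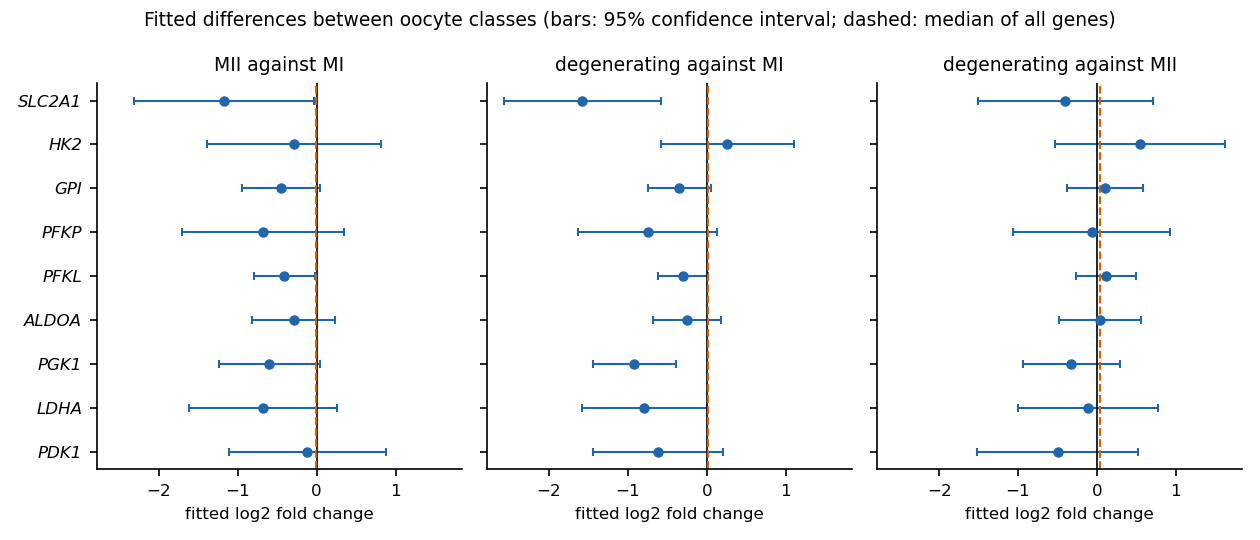
Points are the fitted log2 differences of the 9 members with 95% confidence intervals (edgeR, treatment group as a term) in 3 panels, and the dashed line is the median of all genes. In MII against MI all 9 points lie below 0 and the intervals of SLC2A1 and PFKL exclude 0, and in degenerating against MI the SLC2A1 point is the lowest at −1.58.

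The remaining genes of the pathway were read from lists of other transporters and enzymes, of hypoxia-responsive genes and of side branches. In MII against MI, 26 of 46 other glycolysis genes tested were negative (median −0.19), with 7 lower and 3 higher at an unadjusted p under 0.05. Of 26 hypoxia-responsive genes 17 were negative (median −0.28, 3 lower and 0 higher), and of 14 genes of the pentose phosphate pathway, glycogen and hexosamine branches 11 were (median −0.17, 1 lower and 0 higher). No gene of these lists passed the adjusted threshold in any comparison. By step, the median was −0.46 for 7 hexose transporters, −0.18 for 13 enzymes of the preparatory phase, −0.15 for 8 of the payoff phase and −0.01 for 18 genes of pyruvate and lactate fate.

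Among single genes of these lists, the lactate exporter SLC16A3 (MCT4) was at 54.6 ± 13.8 CPM in MII (SD, n = 4) and 126 ± 40.5 CPM in MI (SD, n = 8), a log2 difference of −1.22 (SE 0.41, edgeR adjusted p = 0.9995). Its MII values ran between 39.3 and 66.3 CPM, and its MI values between 50.9 and 175 CPM. The glycogen synthase GYS1 was at 36.2 ± 7.54 CPM in MII (SD, n = 4) and 56.1 ± 10.7 CPM in MI (SD, n = 8), a log2 difference of −0.87 (SE 0.27, edgeR adjusted p = 0.9995). The hypoxia-responsive BNIP3, a mitophagy receptor, had a difference of −0.84 and NDRG1 one of −1.18. The transporter SLC2A6, the phosphatase PDP2 and the pyruvate dehydrogenase component PDHX had −1.30, −0.60 and −0.40.

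The transporter SLC2A3 (GLUT3) had a fitted difference of the opposite sign to that of SLC2A1. It was at 43.8 ± 20.5 CPM in MII (SD, n = 4) and 21.1 ± 10.9 CPM in MI (SD, n = 8), a log2 difference of 0.77 (SE 0.34, edgeR adjusted p = 0.9995), and it was at 42.9 ± 9.03 CPM in the degenerating libraries (SD, n = 6), 0.69 above MI on the log2 scale. SLC2A3 is abundant in leukocytes, whose markers had fitted differences of the same sign in both contrasts with MI. In degenerating against MII the leukocyte markers had a median log2 difference of 3.09. Mean SLC2A3 was 42.9 CPM in degenerating and 43.8 CPM in MII libraries. The part of leukocytes in SLC2A3 was not tested. LDHC, the testis form of lactate dehydrogenase, had a difference of 1.89 at levels of 0.184 to 0.422 CPM in MII and 0.0244 to 0.128 CPM in MI. Of the other pathway genes and the hypoxia regulator HIF1A, GAPDH had a log2 difference of −0.49 (1557 ± 250.3 CPM in MII, n = 4, and 1930 ± 490.0 CPM in MI, n = 8, SD), PGAM1 −0.46, HIF1A −0.35, HK1 −0.26, PFKM −0.18 and LDHB (ENSMMUG00000002679) 0.03.

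In degenerating against MI, 27 of the 46 other glycolysis genes were negative (median −0.12, 5 lower and 7 higher at an unadjusted p under 0.05), as were 14 of 26 hypoxia-responsive genes (median −0.18, 5 lower and 3 higher) and 10 of 14 side branch genes (median −0.25, 2 lower and 1 higher). HK3, the hexokinase of myeloid cells, had the largest of the named differences, 5.16 (edgeR adjusted p = 0.164), with 0.314 to 88.4 CPM in degenerating and 0.146 to 1.34 CPM in MI. The macrophage markers summed to as much as 2706 CPM in the degenerating libraries, and their part in HK3 was not tested. BNIP3 was at −0.87 (edgeR adjusted p = 0.170), SLC16A3 at −0.95 (edgeR adjusted p = 0.219), GYS1 at −0.69 (adjusted p = 0.172) and GAPDH at −0.59 (edgeR adjusted p = 0.333).

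The treatment comparisons showed no difference beyond the spread between animals. In edgeR, none of the 9 members had an adjusted p under 0.05 in any of 6 comparisons, and none an unadjusted p under 0.05. No gene of the 15019 tested passed the adjusted threshold in any of them, a background of 0% called in each, while 579 to 1079 genes had an unadjusted p under 0.05 and DESeq2 called between 0 and 4. The 3 comparisons with Chow+C share those 4 libraries, so their values are not independent of each other.

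Testosterone on chow was read from Chow+T against Chow+C. LDHA had 789, 458, 666 and 613 CPM in Chow+T, against 806.5, 256, 617 and 395 CPM in Chow+C. The lowest value was that of Chow+C 2 and the groups overlapped, with a log2 difference of 0.28. ALDOA had 758, 729, 784 and 835 CPM in Chow+T, against 669, 433, 779 and 607 CPM in Chow+C. Chow+C 3, with 779 CPM, lay within the Chow+T range, and the other Chow+C libraries were below every Chow+T library. Chow+C 3 was set apart after the values were seen, and the share of all genes so arranged was not computed. The ALDOA difference was 0.32 (95% confidence interval −0.16 to 0.80). HK2 ran in the other direction, with 60.1, 72.1, 53.3 and 90.9 CPM in Chow+T, against 91.1, 169, 92.0 and 73.5 CPM in Chow+C, a log2 difference of −0.62 (95% confidence interval −1.57 to 0.33). Of the 9 members 7 were positive, with a median of 0.08, against −0.02 over all genes. Without Chow+C 2, 6 of the 9 were negative, and without Chow+T 4, 4 were. Chow+T held no MI library and Chow+C held 3, and with the oocyte class as a term (and the GV library left out) the difference was 1.10 for SLC2A1, against −0.12 without that term. In that fit it was 0.87 for LDHA, 0.70 for PFKP and 0.67 for PGK1, 1 member was negative, and none had an unadjusted p under 0.05.

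The diet alone, WSD+C against Chow+C, gave 9 positive members with a median log2 difference of 0.14, against 0.02 over all genes. The differences ran between 0.06 for PDK1 and 0.35 for LDHA, with 0.33 for PFKP, 0.30 for PGK1 and 0.28 for SLC2A1. LDHA had 610.0, 1081, 810.0, 153 and 661 CPM in WSD+C, against 806.5, 256, 617 and 395 CPM in Chow+C. WSD+C 4 gave the lowest value of all 19 libraries, and the WSD+C range enclosed that of Chow+C. In the fits that left out 1 library, up to 3 members turned negative, with 3 reached without Chow+C 2. The summed leukocyte markers lay between 7.52 and 2094 CPM in WSD+C and between 10.0 and 59.96 CPM in Chow+C, all 10 were higher in the fit, and their part in the member values was not tested beyond the covariate fit, in which no member passed the adjusted threshold. The ENO1-symbol row had a difference of 1.30 (edgeR adjusted p = 0.830), which was 0.42 without WSD+C 5, the library with 137 reads (3.40 CPM) in that row.

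Both treatments together, WSD+T against Chow+C, gave 6 positive and 3 negative members and a median of 0.23, against −0.0009 over all genes. LDHA had a lowest of 514, a median of 789 and a highest of 1256 CPM in the 6 WSD+T libraries, against 806.5, 256, 617 and 395 CPM in Chow+C. The groups overlapped between 514 and 806.5 CPM. The log2 difference was 0.62 (SE 0.42, 95% confidence interval −0.2545 to 1.4998; edgeR adjusted p = 0.728). PFKP and PGK1 had 0.45 and 0.41, and PDK1, at 25.5 ± 13.5 CPM in WSD+T (SD, n = 6) and 34.2 ± 14.7 CPM in Chow+C (SD, n = 4), had −0.43. With the oocyte class as a term, the LDHA difference was 0.94 and the PGK1 difference 0.77, and these 2 members had an unadjusted edgeR p under 0.05, among 1089 such genes of 15386. Without Chow+C 2 the differences were 0.40 and 0.20. The summed leukocyte markers were between 26.0 and 1719 CPM in WSD+T and between 10.0 and 59.96 CPM in Chow+C, and the macrophage markers between 10.4 and 2706 CPM in WSD+T and between 13.5 and 19.8 CPM in Chow+C. All 10 of either list were higher in the fit. With the leukocyte score as a covariate 2 members, again PGK1 and LDHA, had an unadjusted edgeR p under 0.05, among 1305 such genes of 15019, and none passed the adjusted threshold.

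Testosterone on the Western-style diet, WSD+T against WSD+C, gave 6 positive and 3 negative members, with a median of 0.11 against −0.0002 over all genes. PDK1 had the largest difference, −0.49, with a lowest of 14.3, a median of 20.3 and a highest of 50.4 CPM in WSD+T, against 43.4, 44.7, 33.9, 10.0 and 46.6 CPM in WSD+C. Apart from WSD+C 4, which had the 10.0 CPM, every WSD+C library was above every WSD+T library except WSD+T 5, which had the 50.4 CPM. Both libraries were set apart after the values were seen, and the share of all genes so arranged was not computed. The edgeR adjusted p of PDK1 was 0.9992. HK2 and SLC2A1 had −0.31 and −0.30, and LDHA had 0.27. Without WSD+C 4, 6 of the 9 members were negative, and without WSD+T 5, 5 were. Erythroid, lymphocyte, smooth muscle and oocyte markers were lower in the fit. An unadjusted p under 0.05 was reached by 6 of 6 erythroid markers tested (median −5.56), 5 of 9 lymphocyte, 3 of 6 smooth muscle and 2 of 6 oocyte markers. All 10 macrophage markers were higher (median 2.54), with 0 at that level. Leukocyte markers were split, 5 higher and 5 lower (median 0.03). Of 9 neutrophil markers 5 were higher, 1 of them at that level. The erythroid sum lay between 146 and 2385 CPM in WSD+T and between 12.4 and 128800 CPM in WSD+C, the lymphocyte sum between 0.664 and 25.1 CPM in WSD+T and between 0.293 and 330.0 CPM in WSD+C, and WSD+C 4 was highest in both. Their part in the member values was not tested. WSD+T against Chow+T gave 7 positive and 2 negative members (median 0.17, against 0.04 over all genes), with 0.45 for HK2 and −0.45 for PDK1. SLC2A1 was at 0.10 there, and at −0.71 with the oocyte class as a term. In the testosterone by diet interaction 3 members were positive and 6 negative, with a median of −0.02 against 0.01 over all genes, and no member had an unadjusted p under 0.05. That count was unstable, with 2 to 8 negative on leaving out 1 library (2 without WSD+C 3 or WSD+T 3, 8 without WSD+C 4, WSD+T 5 or Chow+C 1), 8 with the oocyte term and 2 with the leukocyte covariate.

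**Figure D4:**
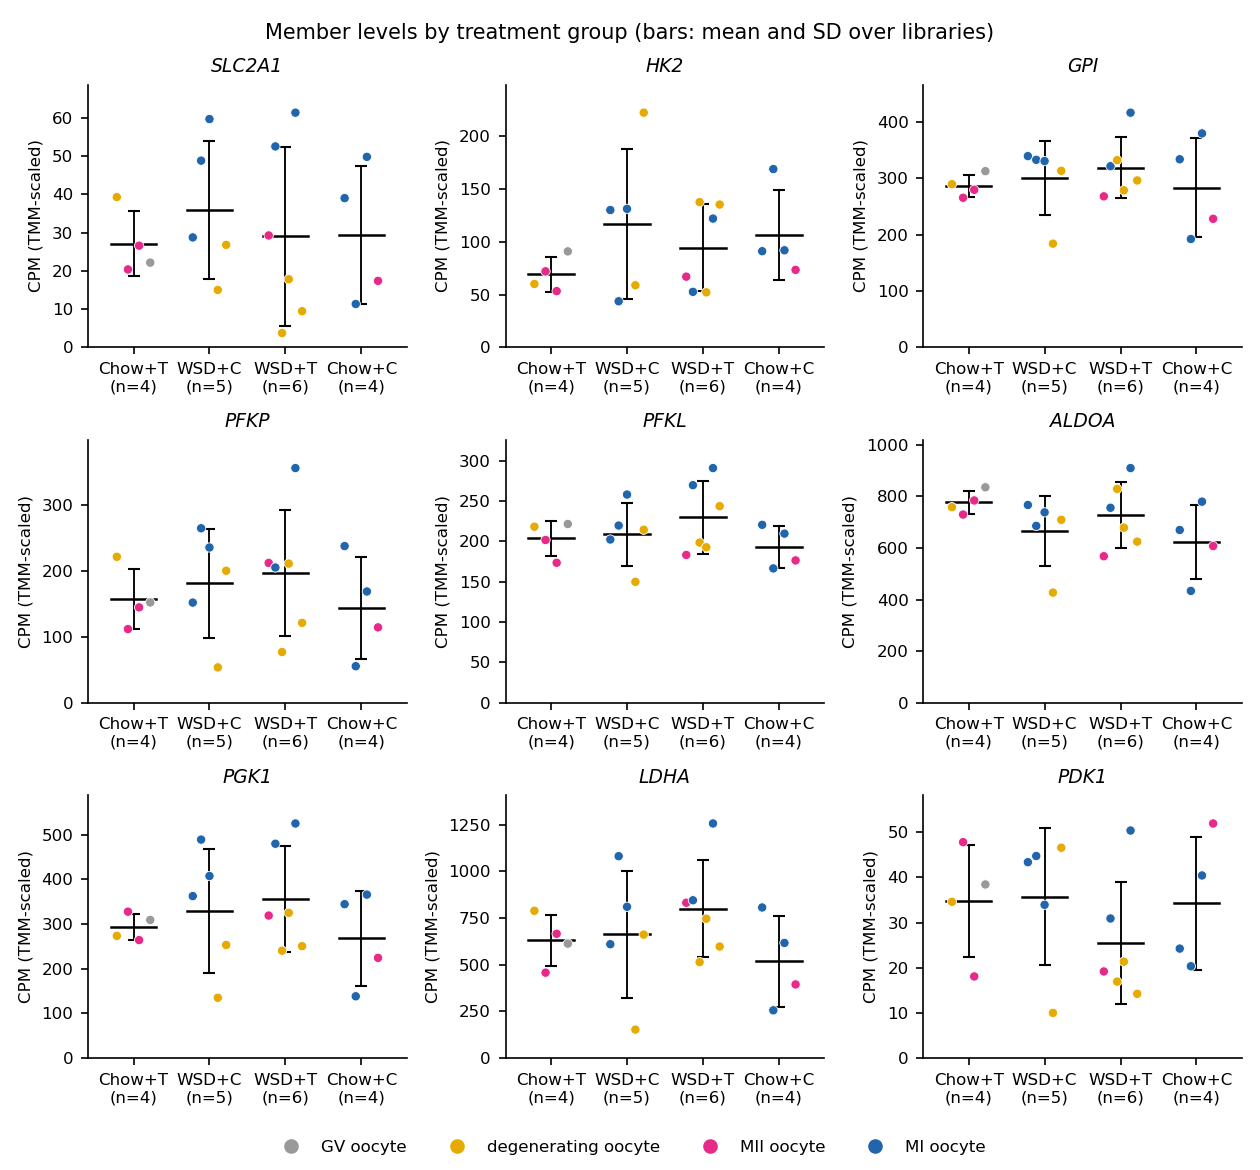
Each panel shows 1 member as TMM-scaled CPM in Chow+T, WSD+C, WSD+T and Chow+C, points are libraries coloured by oocyte class, and bars are the mean and SD. The groups overlap in every panel, for example LDHA at 631 ± 137 CPM in Chow+T, 663 ± 339 in WSD+C, 799 ± 259 in WSD+T and 519 ± 243 in Chow+C.

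Other glucose genes were read in the same treatment comparisons, again with no gene past the adjusted threshold. SLC2A3 had differences of 1.47 in Chow+T against Chow+C (SE 0.44, edgeR adjusted p = 0.658), 1.16 in WSD+T against Chow+C (adjusted p = 0.717) and 0.86 in WSD+C against Chow+C (adjusted p = 0.830). HK3 had larger fitted differences with wider intervals, 3.93 in WSD+T against Chow+C (95% confidence interval −0.0018 to 7.85) and 3.02 in WSD+C against Chow+C (95% confidence interval −0.79 to 6.82). The 14 side branch genes were all positive in WSD+T against Chow+C (median 0.26, against −0.0009 over all genes), among them PGD of the pentose phosphate pathway at 0.47 (edgeR adjusted p = 0.717). PGD was at 0.49 in WSD+T against Chow+T (edgeR adjusted p = 0.862). TIGAR, a phosphatase that turns sugar away from glycolysis, had 0.95 in WSD+T against Chow+C and 0.75 in WSD+C against Chow+C. More than 1 row carries the symbol TIGAR. Only these values are given, and they do not stand for every row of that symbol.

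The members varied together across libraries, with HK2 apart. Of 45 relations computed between rows, 28 join the 8 members other than HK2 that have a reference identifier. Their Pearson r ran between 0.331 and 0.933 with a median of 0.702, and 23 had a Benjamini-Hochberg adjusted permutation p under 0.05 (100000 permutations). Spearman's rho ran between 0.2 and 0.937, with 16 under that threshold. The share over pairs of all genes was not computed, so these counts cannot set the members apart from other genes. For each pair, r was also computed without the 2 libraries farthest from the median of the gene named first, so the libraries left out differed. They were WSD+T 3 and WSD+T 6 for pairs with SLC2A1, which kept WSD+C 4 and Chow+C 2. For pairs with PFKL first they were WSD+C 4 and WSD+T 5, and otherwise WSD+C 4 and Chow+C 2. On these sets r ran between 0.0275 and 0.897 with a median of 0.575. Some relations were then weaker, such as LDHA with PDK1 at 0.0275, against 0.467 over all libraries, and some stronger, such as SLC2A1 with ALDOA at 0.671, against 0.331. Taking off the treatment group means left r between 0.429 and 0.945.

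PFKP and LDHA gave the highest r, 0.933 (permutation p = 1e-05, the smallest that these permutations can give, adjusted p = 9e-05), with a rho of 0.937, and r was 0.897 without WSD+C 4 and Chow+C 2. HK2 stood outside this. Its 8 relations with the other members had r between −0.267 and 0.188, and 0 of them passed the adjusted threshold. WSD+C 5 had the highest HK2 level, 222 CPM, and Chow+C 2 the next highest, 169 CPM, although Chow+C 2 was second lowest for 6 of the other members.

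Each member was also set beside marker scores, 30 relations in all. The 2 farthest libraries are here those farthest from the median of the score. The granulosa score was higher in libraries with more GPI (r = 0.709, permutation adjusted p = 0.017; rho = 0.746, adjusted p = 0.0099; r = 0.57 without the 2 farthest libraries) and with more ALDOA (r = 0.684, adjusted p = 0.032; rho = 0.705; r = 0.633 without the 2 farthest). The leukocyte score ran against PDK1 with r = −0.641 (permutation adjusted p = 0.025), but with a rho of −0.36 (adjusted p = 0.24) and an r of −0.272 without WSD+C 4 and WSD+T 6, so that this relation rested on those libraries. The erythroid score gave r = −0.678 with PDK1 (permutation adjusted p = 0.017), rho = −0.54 (adjusted p = 0.13), and −0.47 for r once WSD+C 2 and WSD+C 4 were left out. Against SLC2A1 the leukocyte score gave r = −0.576 (permutation adjusted p = 0.054), rho = −0.554 and r = −0.524 without the 2 farthest.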

How the data were processed

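RNA was purified with a Promega kit and made into non-directional, polyA-selected TruSeq libraries, per the labels' protocols. The submitters' processing notes name Trimmomatic (a read trimmer) and STAR (an aligner). No version, genome build or annotation is named in the sources used here. The authors deposited raw read counts per gene, in 1 table of 19 libraries. Of its rows, 21539 carry a symbol and 17621 identifiers were found in the reference table. Rows of 4 read classes that name no gene were left out. Since the libraries hold no strand, an antisense or overlapping gene can add reads to a member, and glycolysis genes have near-identical processed pseudogenes that can share reads.

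Counts were filtered with filterByExpr (minimum count 10, minimum total 15), scaled by TMM and tested two-sided with edgeR 4.0.16 (robust quasi-likelihood, R 4.3.3) over all genes, with Benjamini-Hochberg adjustment and a threshold of 0.05. The treatment fit held 19 libraries and 15019 genes. The oocyte fit held 18 libraries and 14976 genes, with treatment group as a term, and left out the 1 GV library. DESeq2 1.42.0, other scaling, no filter, covariates and left-out libraries were alternatives. Log2 CPM used a prior count of 1. Single members were also tested by exact permutation of log2 CPM over libraries, without regard to treatment group and without adjustment over the members. The fits were run on simulated data with a lower dispersion than here and larger changes than the members had. That run does not show how the fits perform at the spread of these data. Each library is 1 animal, the labels give no batch, and common dispersions were 0.34 and 0.293. Intervals reflect the spread between animals. All members are named, with up to 4 genes of smallest p per list and comparison (8 for MII against MI), from which some are given. The members and lists were chosen with earlier results of these data known.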

Additional observations from a re-analysis of the deposited data

Results flagged for a closer look

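In 5 of 63 sets of a member and a group of libraries tested, the lowest library stood apart from the rest by Dixon's criterion at the 95% level, which chance alone passes in about 1 of 20 groups. All 5 came from WSD+C 4 or Chow+C 2. GPI had 184.2 CPM in WSD+C 4, which stood apart both within WSD+C, where the others had 313.5 to 339.6 CPM, and among degenerating libraries, where the others had 278.9 to 332.4 CPM. GPI also had 192.4 CPM in Chow+C 2, where the other MI libraries had 321.7 to 416.7 CPM. ALDOA had 426.9 CPM in WSD+C 4, where the other WSD+C libraries had 685.2 to 766.1 CPM. PGK1 had 138.5 CPM in Chow+C 2, where the other MI libraries had 344.4 to 524.9 CPM. WSD+C 4 also had the lowest granulosa marker score, 5.78, and Chow+C 2 the lowest share of reads in genes, 49.1%, and their part in these values was not tested.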

How the results depend on the processing

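With DESeq2's size factors and without a filter on low counts, edgeR again called 0 genes in each of the 9 comparisons. DESeq2 called 4 genes in Chow+T against Chow+C, 3 in WSD+T against Chow+C, 4 in WSD+T against Chow+T, 3 in the interaction, 6 in MII against MI, 801 in degenerating against MI and 8 in degenerating against MII. Of the 801, 2 were member rows (PGK1 and SLC2A1). Without the treatment group term 574 genes passed in degenerating against MI, and with the leukocyte covariate 3 passed in degenerating against MII; the cause was not tested. Leaving out 1 library at a time gave 0 to 226 genes in degenerating against MI (226 without Chow+T 1), 0 to 1 in degenerating against MII (1 without WSD+C 2) and 0 to 0 in the other comparisons. No paired analysis was possible because the labels give no replicate numbers and each library is a different animal. MII holds 4 libraries, which limits the precision of its means.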

Other observations

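Over the 19 libraries and 11162 named genes averaging 0 or more in log2 CPM, genes were ranked by the Pearson r of their log2 CPM with a mean z-score of the 9 members and the ENO1-symbol row. The highest were GAPDH (r = 0.93), MGARP (0.887), SLC52A2 (0.882), BORCS5 (0.881), BNIP3 (0.875), COQ6 (0.864), DDX1 (0.864) and EDF1 (0.861). With the mean of the 9 members alone, which is the one used above, 5 of these 8 (GAPDH, MGARP, SLC52A2, BNIP3 and COQ6) were again among the 8 highest. The libraries share depth, cell makeup and the low values of WSD+C 4 and Chow+C 2, so these r are a description.

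The balance between lactate dehydrogenase subunits, as the log2 ratio of LDHA to LDHB CPM, which is not scaled for gene length, ran between 2.53 and 3.81 (median 3.27) in degenerating libraries, between 2.47 and 3.41 (median 3.003) in MII libraries and between 2.68 and 4.24 (median 3.59) in MI libraries. The classes overlapped. The log2 ratio of HK2 to HK1 had medians of −0.20 in degenerating, −0.61 in MII and −0.17 in MI libraries, again with overlapping ranges.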
